A study of Mus musculus with 12 samples.

Results

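The 10 genes described here encode proteins of the elastic fibre (Eln, Fbn1, Mfap5, Fbln2 and Fbln5) and the lysyl oxidase family that cross-links it (Lox, Loxl1, Loxl2, Loxl3 and Loxl4). They were taken by gene symbol from a table of 24318 genes, with earlier results of these data known, and all 10 were found. All 10 also passed the filter on low counts, as did 12469 genes in all.

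Elastic fibres give skin, lung and arterial wall their recoil, and fibroblasts lay them down as a core of cross-linked elastin on a scaffold of fibrillin microfibrils. Elastin leaves the cell as soluble tropoelastin. Fibulin-5 tethers it to integrins and helps it gather on microfibrils, which are polymers of fibrillin-1 that carry small associated proteins such as the product of Mfap5. Lysyl oxidases are copper enzymes that turn lysine side chains of elastin and collagen into reactive aldehydes, from which the covalent cross-links form. Fibroblasts are a main source of both the fibre proteins and these enzymes.

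The cells were immortalized mouse embryonic fibroblasts, and every group carried the genotype MafF-/-::MafG-/-::MafK-/-, so that all 3 small Maf genes were deleted in the controls too. Small Maf proteins are the DNA-binding partners of Nrf2, the factor that turns on defences against electrophiles. Mock cells were set against cells expressing T-N2G (spelled T-NG2 in a genotype label), the product of Nrf2 tethered to MafG, and each was kept for 12 h in vehicle or in 100 µM diethyl maleate (DEM), an electrophile that depletes glutathione. Each of the 4 resulting groups, named below by cell population and treatment, had 3 libraries. The labels give 10% serum for all of them. The labels name neither the promoter that drives T-N2G nor whether either population is a clone, give no age or strain, and do not say that replicates were separate cultures. The p-values below therefore measure the spread between these libraries, which may be technical.

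Library totals lay between 18863560 and 23095692 fragments. Mafg, the MafG portion of the tether, had a CPM (fragments scaled to a common library size; mean ± SD, n = 3) of 0.514 ± 0.0394 in mock vehicle and 137 ± 27.9 in T-N2G vehicle, and Nfe2l2, the gene of Nrf2, had 53.2 ± 5.56 and 599 ± 109. Both transcripts separated the populations in the direction that the labels give, with vehicle and with DEM. Fragments of the other deleted genes were also present, Maff at 4.06 ± 0.645 CPM and Mafk at 2.04 ± 0.254 in mock vehicle. Values summed over a whole gene do not tell the deleted exons from the rest, so the deletions themselves could not be checked. All 8 fibroblast markers examined had fragments, and their summed level was 2237 to 2639 FPKM (fragments relative to transcript length and library size) over the 12 libraries, most of it Vim, the intermediate filament vimentin. Among them Lum was near the floor, at most 0.0760 FPKM in any library and 0 in every T-N2G DEM library, and did not pass the filter. Summed endothelial markers, led by the receptor gene Kdr, reached at most 3.04 FPKM, and macrophage markers, led by Cd68, at most 2.52, with Adgre1 at 0 in every library. Smooth muscle markers summed to between 932 and 1512 FPKM, most of it Acta2 and Tagln. Which cells these transcripts came from was not tested. The smooth muscle list was uneven. In mock vehicle Acta2 had a mean of 836 FPKM, Tagln 318 and Smtn 32.2, against 1.68 for Cnn1, 0.217 for Lmod1, 0.182 for Des and 0.0446 for Myh11.

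The libraries were not interchangeable between replicate numbers. After group means were removed, libraries with the same number deviated together (r 0.424 to 0.720 over 18 pairs, across genes), against -0.516 to 0.0583 for 36 pairs with different numbers. The 3 deviations of a gene in a group sum to 0, so positive values for the same number pull those for different numbers under 0. The second range is therefore not independent of the first. Replicates 1 and 2 also carry library codes of a different series from replicate 3. A pair of fits with edgeR's quasi-likelihood test are therefore given. The first compares groups alone, and the second adds the replicate number as a block, called the blocked fit. A gene was called at a Benjamini-Hochberg adjusted p under 0.05 over all 12469 genes. Values without mention of the block come from the first fit, and log2 fold changes carry their approximate standard error.

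Fbn1 and Loxl4 were the members called lower with DEM in T-N2G cells, so the 250 bases upstream of their RefSeq starts (mouse build GRCm38.p6) are shown, 5′ to 3′ on the gene's strand. Capitals mark GGGCGG, the GC box bound by Sp-family factors. The Fbn1 stretch is chr2:125506439-125506688 on the minus strand with 59.2% G or C, and the Loxl4 stretch is chr19:42612807-42613056 on the minus strand with 76.0%.
Fbn1: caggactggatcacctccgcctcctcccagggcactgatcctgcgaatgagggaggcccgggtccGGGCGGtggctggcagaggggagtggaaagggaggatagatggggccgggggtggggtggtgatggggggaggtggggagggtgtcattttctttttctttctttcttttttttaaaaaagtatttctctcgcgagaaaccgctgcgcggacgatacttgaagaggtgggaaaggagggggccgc
Loxl4: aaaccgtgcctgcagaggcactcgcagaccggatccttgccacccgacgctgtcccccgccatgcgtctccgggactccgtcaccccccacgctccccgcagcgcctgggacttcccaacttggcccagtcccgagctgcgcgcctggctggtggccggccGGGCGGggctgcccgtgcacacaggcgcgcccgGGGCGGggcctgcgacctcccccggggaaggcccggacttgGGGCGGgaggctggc

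The Fbn1 stretch holds 1 GC box, beginning at -185 from the start, and the Loxl4 stretch holds 3, at -89, -56 and -15. GGGCGG on either strand occurs in 35.7% of the 32851 RefSeq promoter windows of 300 bases (250 before and 50 after the start). Windows for 4 of the 10 genes were matched (Fbn1, Loxl4, Fbln2 and Fbln5, the last with 2 starts). The bases just after the start were found in a GENCODE transcript of the gene for Fbn1, Loxl4 and Fbln2, but for neither start of Fbln5. None of these 5 windows held, on either strand, TGACNNNGC (the core of the antioxidant response element that Nrf2 and small Maf bind; in 12.4% of all windows), TGANTCA (the AP-1 site, which can overlap the former; 7.81%) or ACGTG (the core of the hypoxia response element; 19.6%). These letters are a description of the windows only.

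In FPKM, which allows genes of different length to be compared, the 10 genes spanned a wide range of levels. Fbln2, which encodes fibulin-2, a binding partner of fibrillin and elastin, was the most abundant at a mean of 986 over 12 libraries and ranked 68 among all genes. Lox, the founding lysyl oxidase, followed at 299, Loxl1, the family member most tied to elastin, at 108, Loxl2, which also acts on the collagen of basement membranes, at 58.3, and Fbln5 at 54.9. Fbn1 stood at 23.9, Loxl3 at 20.0 and Loxl4 at 18.8. Eln and Mfap5 were near the floor, at 0.817 and 0.411. The library ranges of Loxl2 and Fbln5, of Fbn1 and Loxl3, of Loxl3 and Loxl4, and of Eln and Mfap5 overlapped, so these neighbours are not separated beyond their spread. The other neighbours in the order did not overlap. These fibroblasts thus had far more mRNA for cross-linking enzymes and fibulins than for elastin itself.

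**Figure D1:**
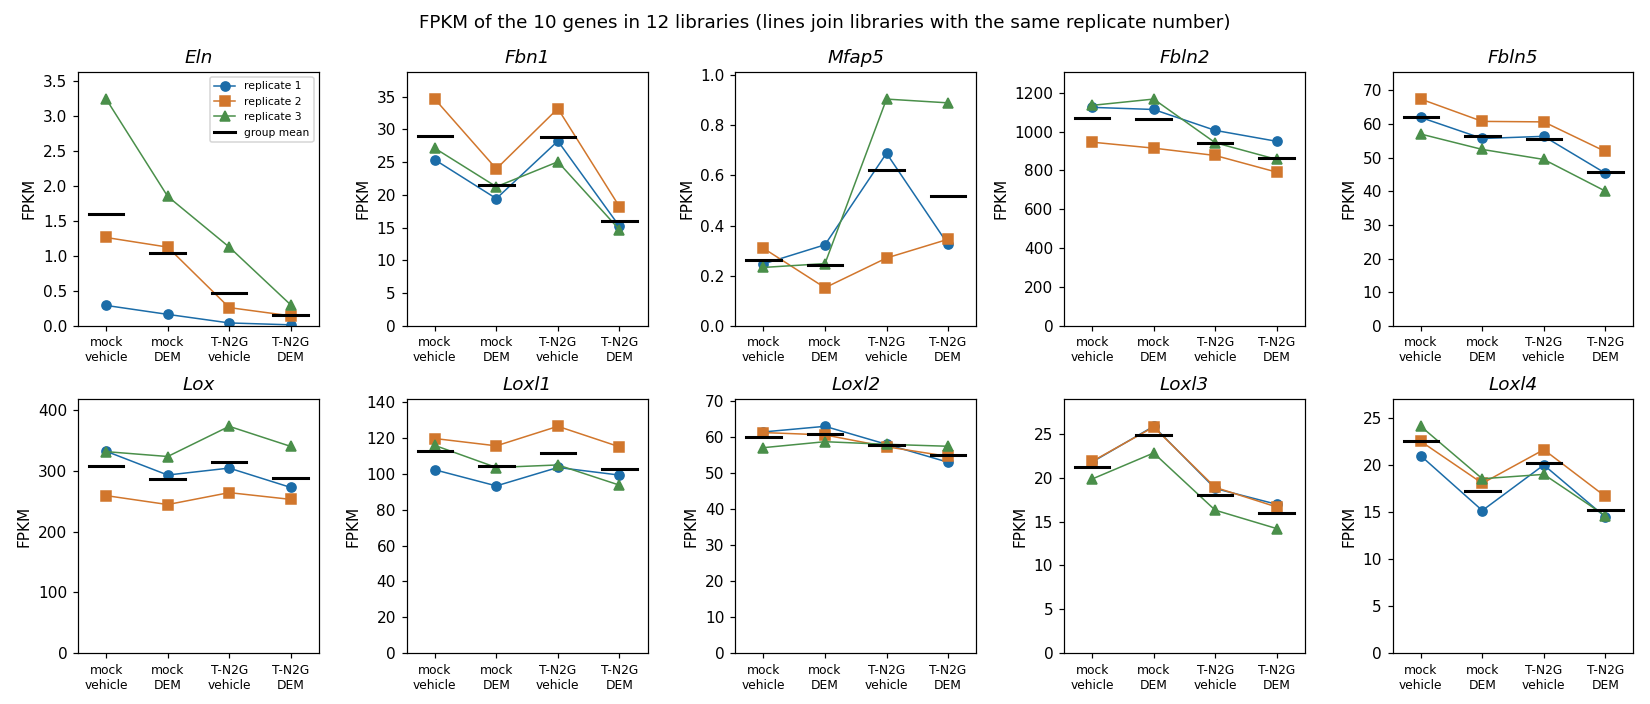
FPKM of each of the 10 genes (1 panel per gene, linear axis) in the 4 groups, with 1 point per library and lines joining libraries of the same replicate number. Fbn1 is lowest in the 3 T-N2G DEM libraries, Loxl3 is highest in the 3 mock DEM libraries, and Eln is highest in replicate 3 of every group.

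Elastin mRNA was scarce and differed widely between replicate numbers. Mock vehicle had 21, 97 and 248 fragments in replicates 1, 2 and 3, mock DEM 12, 88 and 155, T-N2G vehicle 3, 20 and 85, and T-N2G DEM 1, 11 and 20. The highest library was 11.1-fold above the lowest in mock vehicle and 11.4-fold in mock DEM, in CPM. The spread was wider in the T-N2G groups, whose lowest libraries had 3 and 1 fragments, too few for a fold. The groups overlapped in every comparison. Within each replicate number, however, T-N2G lay under mock cells and DEM under vehicle, 3 of 3 pairs in all 4 comparisons.

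In the fit without the block Eln was called in no comparison. T-N2G against mock gave -1.75 ± 1.00 on the log2 scale in vehicle (adjusted p = 0.880) and -2.82 ± 1.21 in DEM (adjusted p = 0.291). DEM against vehicle gave -0.60 ± 0.93 in mock cells (adjusted p = 0.707) and -1.67 ± 1.31 in T-N2G cells (adjusted p = 0.412). In the blocked fit all 4 were called lower, at -1.78 ± 0.21 (adjusted p = 3.72e-05), -2.80 ± 0.28 (adjusted p = 1.12e-06), -0.58 ± 0.18 (adjusted p = 0.0159) and -1.60 ± 0.33 (adjusted p = 0.000847).

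The 2 DEM calls for Eln depended on replicate 3, which holds most of its fragments. Blocked, the call in mock cells was lost without replicate 3 of mock DEM (-0.18, adjusted p = 0.571) or of mock vehicle (adjusted p = 0.124), and the call in T-N2G cells without replicate 3 of T-N2G vehicle (adjusted p = 0.1003). With replicates 1 and 2 alone and the block, the adjusted p was 0.303 in mock and 0.134 in T-N2G cells. Krt14, a keratin of basal epithelium and the most abundant of 6 epithelial markers, was also highest in replicate 3 of each group (15.6, 10.98, 12.7 and 17.4 FPKM, against 2.83 to 7.09 in replicates 1 and 2). With the block Krt14 was lower with DEM in mock cells (-0.45, adjusted p = 0.00328) and higher in T-N2G cells (0.40, adjusted p = 0.00495), and it was called in neither without it. The other epithelial markers (Krt5, Krt8, Krt18, Epcam and Cdh1) were near the floor, with group means of at most 0.183 FPKM. Cdh1, the only other one tested, was lower with DEM in T-N2G cells with the block (-0.95, adjusted p = 0.0336), opposite to Krt14. The part of Krt14 in the Eln values was not tested. Acta2, the smooth muscle actin, was highest in replicate 1 of each group.

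Fbn1, the gene of fibrillin-1, showed the largest DEM effect among the abundant members. In mock cells it had 248, 341 and 266 CPM with vehicle and 190, 235 and 208 with DEM, and in T-N2G cells 276, 328 and 245 with vehicle and 150, 179 and 144 with DEM (replicates 1, 2 and 3). All 3 T-N2G DEM libraries were under the other 9, and the 2 vehicle groups overlapped. DEM lowered Fbn1 1.80-fold in T-N2G cells (log2 -0.85 ± 0.14, adjusted p = 0.00234), in 3 of 3 pairs.

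In mock cells the DEM difference in Fbn1 was -0.43 ± 0.14 (adjusted p = 0.0600), which missed the threshold, although the 3 DEM libraries lay under the 3 vehicle libraries. It passed in the blocked fit (-0.42 ± 0.05, adjusted p = 9.97e-06), with DESeq2 (adjusted p = 0.0203) and without replicate 1 of mock vehicle (adjusted p = 0.0479). That was the only 1 of 6 fits without the block and with 1 library left out in which it passed (adjusted p up to 0.1915). Replicates 1 and 2 alone, without the block, gave an adjusted p of 0.215. T-N2G and mock cells did not differ detectably in vehicle (-0.01 ± 0.14, adjusted p = 0.998). In DEM the difference between T-N2G and mock cells was -0.42 ± 0.14 (adjusted p = 0.149), and it was called with the block (-0.43 ± 0.05, adjusted p = 1.43e-05). With replicates 1 and 2 alone the DEM difference in T-N2G cells was -0.89 (adjusted p = 0.0539, and 2.67e-08 with the block). In the GENCODE annotation of GRCm38, 20.1% of the exon bases of Fbn1 overlap Gm9913 on the opposite strand, which was not analysed here.

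Fbln5 and Fbln2 differed little in size but mostly in 1 direction. In mock cells Fbln5 had 356, 390 and 328 CPM with vehicle and 320, 350 and 302 with DEM, and in T-N2G cells 324, 352 and 284 with vehicle and 262, 299 and 230 with DEM. T-N2G DEM lay wholly under mock DEM, and the other pairs of groups compared overlapped. Without the block none of its differences was called with all libraries, though DEM in T-N2G cells was without replicate 2 of T-N2G DEM (adjusted p = 0.0360). With the block all 4 were called lower, at -0.16 ± 0.04 (T-N2G in vehicle, adjusted p = 0.0168), -0.30 ± 0.04 (T-N2G in DEM, adjusted p = 2.11e-05), -0.14 ± 0.04 (DEM in mock, adjusted p = 0.00730) and -0.28 ± 0.04 (DEM in T-N2G, adjusted p = 2.26e-05). The first was lost without replicate 3 of mock vehicle (adjusted p = 0.0925) and without replicate 2 (adjusted p = 0.0653) or 3 (adjusted p = 0.107) of T-N2G vehicle.

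Fbln2 stood at 1069 ± 107 FPKM in mock vehicle, 1066 ± 133 in mock DEM, and in T-N2G cells 942 ± 64.7 with vehicle and 866 ± 79.8 with DEM. DEM made no detectable difference to it in mock cells (blocked adjusted p = 0.929). Blocked, T-N2G cells had less than mock cells in DEM (-0.29 ± 0.05, adjusted p = 0.000279). The smaller differences in vehicle (-0.18 ± 0.05, adjusted p = 0.0372) and between DEM and vehicle in T-N2G cells (-0.12 ± 0.05, adjusted p = 0.0470) each depended on single libraries. The first was lost without replicate 2 or 3 of mock vehicle or replicate 1 or 3 of T-N2G vehicle (adjusted p up to 0.226), and the second without replicate 1 or 2 of T-N2G vehicle or replicate 2 or 3 of T-N2G DEM (adjusted p up to 0.256). In the fit without the block no Fbln2 difference was called.

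Mfap5, whose product MAGP-2 decorates microfibrils, was too scarce to compare. It had 6, 8 and 6 fragments in mock vehicle, 8, 4 and 7 in mock DEM, and in T-N2G cells 17, 7 and 23 with vehicle and 8, 9 and 20 with DEM. Only the T-N2G libraries with 17, 23 and 20 fragments reached the filter's minimum count of 10. Mfap5 was thus tested only through the population where it is higher, so its T-N2G estimates cannot serve as evidence of a difference. On the log2 scale they were 1.22 ± 0.51 in vehicle and 1.08 ± 0.54 in DEM. The adjusted p was 0.729 and 0.382, and 0.0929 and 0.0898 with the block.

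Among the lysyl oxidases, Loxl3 carried the clearest difference between T-N2G and mock cells. LOXL3 is a LOXL2-like enzyme with scavenger receptor domains that is needed for palate and spine development. Its CPM was 84.5, 85.3 and 77.1 in mock vehicle, 100.3, 100.3 and 88.7 in mock DEM, and in T-N2G cells 72.8, 74.1 and 63.2 with vehicle and 66.1, 65.0 and 55.1 with DEM. Mock DEM was the highest group without overlap, and both T-N2G groups lay under both mock groups. In DEM, T-N2G cells had 1.55-fold less (log2 -0.64 ± 0.09, adjusted p = 0.00126). That call held in every alternative tried, with replicates 1 and 2 alone included (-0.62, adjusted p = 0.00405).

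The other Loxl3 differences were called only with the block. T-N2G cells had less in vehicle (-0.23 ± 0.04, adjusted p = 0.00194, against 0.652 without the block). DEM raised it in mock cells (0.23 ± 0.04, adjusted p = 0.000278, against 0.106) and lowered it in T-N2G cells (-0.17 ± 0.04, adjusted p = 0.00320, against 0.208). Each held its direction in 3 of 3 pairs. In the same annotation, 535 of 4603 exon bases of Loxl3 (11.6%) overlap Htra2, a mitochondrial protease gene on the opposite strand. Whether fragments were counted by strand is not given in the sources used here. Htra2 (chosen after its values were seen) had 70.4 ± 5.05 CPM in mock DEM and 60.1 ± 5.38 in T-N2G DEM (log2 -0.23 ± 0.11, adjusted p = 0.373), and differed by 0.01 ± 0.11 with DEM in mock cells (adjusted p = 0.958). With the block Htra2 was called lower in T-N2G DEM than in mock DEM (-0.23 ± 0.05, adjusted p = 0.00363), the direction of Loxl3. It was not called with DEM in mock cells (blocked adjusted p = 0.814). The part of this overlap in the Loxl3 values was not tested.

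Loxl4, an enzyme of the same subgroup, fell with DEM in both populations. It had 111, 119 and 127 CPM in mock vehicle, against 79.9, 95.4 and 97.9 in mock DEM, a 1.31-fold fall (log2 -0.39 ± 0.09, adjusted p = 0.0191). In T-N2G cells it had 105, 115 and 100.1 in vehicle and 76.6, 88.3 and 77.0 in DEM, a 1.33-fold fall (log2 -0.41 ± 0.09, adjusted p = 0.0117). DEM and vehicle libraries did not overlap in either population. The call in mock cells was lost without replicate 3 of mock vehicle (adjusted p = 0.0683) or replicate 1 of mock DEM (adjusted p = 0.0659), and both calls were lost with replicates 1 and 2 alone (adjusted p = 0.125 and 0.0905). With the block, replicates 1 and 2 alone gave adjusted p of 6.40e-05 and 2.38e-05.

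Lox, Loxl1 and Loxl2, the 3 most abundant lysyl oxidases, gave 1 call among them. Lox stood at 308 ± 42.0 FPKM in mock vehicle, 287 ± 39.9 in mock DEM, and in T-N2G cells 314 ± 55.2 with vehicle and 289 ± 45.7 with DEM, and Loxl1 at 113, 104, 112 and 103. Both were lower with DEM in 3 of 3 pairs in each population, by 0.10 to 0.12 on the log2 scale, and were called in neither fit (blocked adjusted p = 0.0583 to 0.106). Loxl2 was the steadiest member, with its highest library 1.18-fold above its lowest, and it had 59.8 ± 2.47 FPKM in mock vehicle, 60.7 ± 2.14 in mock DEM, and in T-N2G cells 57.7 ± 0.388 with vehicle and 54.9 ± 2.24 with DEM. Its 1 call, with the block only, was for T-N2G against mock in DEM (-0.14 ± 0.04, adjusted p = 0.0276), and it was lost without replicate 1 of mock DEM (adjusted p = 0.131) or replicate 1 (adjusted p = 0.157) or 2 (adjusted p = 0.0872) of T-N2G DEM.

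**Figure D2:**
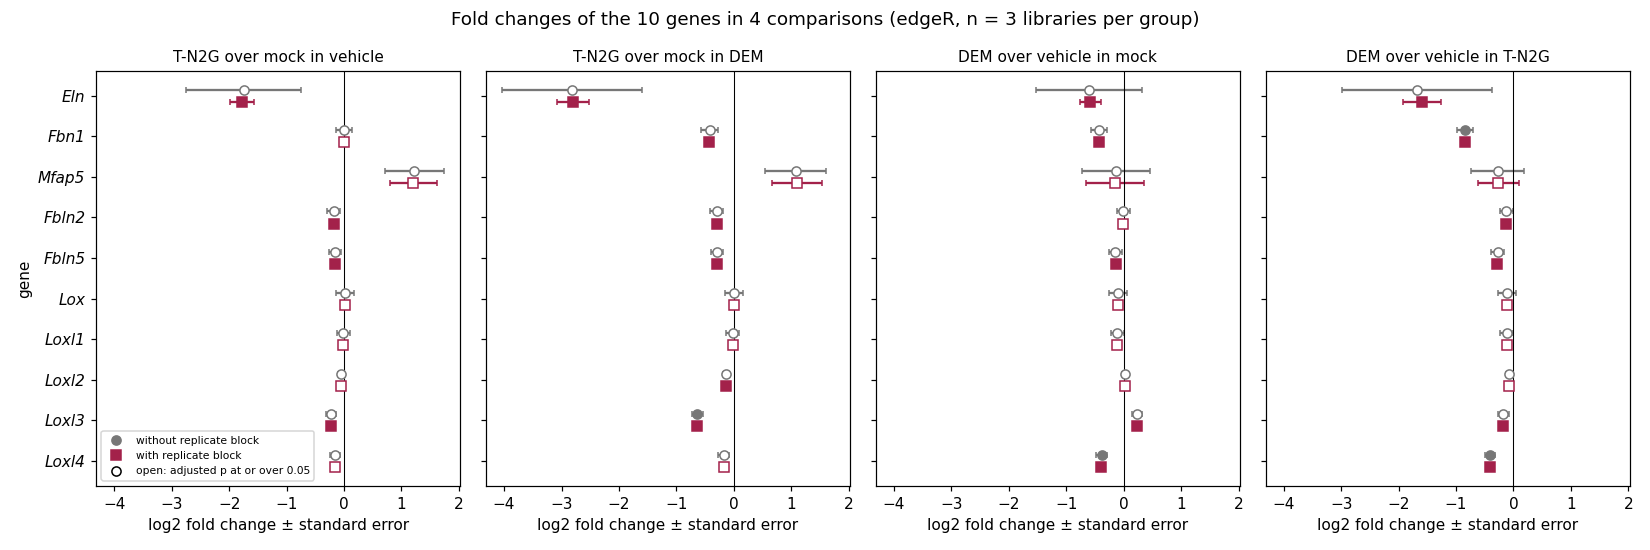
Log2 fold changes of the 10 genes (rows) in 4 comparisons (panels), as points with approximate standard errors, from edgeR without and with the replicate block. Eln has the widest error bars without the block, and Loxl3 in DEM, Fbn1 in T-N2G cells and Loxl4 in both populations stand clear of 0 in either fit.

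Counted over the family, few members were called without the block. T-N2G against mock in vehicle called none, where 0.305% of all tested genes were higher and 0.00802% lower, and 2 members had an unadjusted p under 0.05 from edgeR, while DESeq2 and limma also called none. With the block 4 were lower (Eln, Fbln2, Fbln5 and Loxl3) and none higher, beside 3.24% of all genes lower and 3.06% higher. In DEM, T-N2G against mock called 1 member lower (Loxl3) and none higher, beside 1.11% of all genes lower and 2.61% higher. With the block it called 6 lower (Eln, Fbln2, Fbln5, Fbn1, Loxl2 and Loxl3) and none higher, beside 9.32% lower and 10.3% higher. The members' median log2 fold change was -0.103 in vehicle and -0.236 in DEM, against -0.001 and -0.005 over all tested genes.

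DEM changed many genes in these cells. In mock cells it lowered 1 of the 10 (Loxl4) and raised none, beside 6.18% of all genes lower and 7.76% higher, or with the block 4 (Eln, Fbln5, Fbn1 and Loxl4) beside 21.9% and raised 1 (Loxl3) beside 20.9%. In T-N2G cells it lowered 2 (Fbn1 and Loxl4), beside 7.55% lower and 10.1% higher, or with the block 6 (Eln, Fbln2, Fbln5, Fbn1, Loxl3 and Loxl4) beside 22.2% lower and 22.8% higher, and it raised none of the 10 in either fit. The median was -0.123 in mock and -0.224 in T-N2G cells, against -0.012 and -0.005 over all tested genes. The comparisons share groups of libraries, so their counts are not independent of each other. In bulk RNA, fewer cells of a type and less RNA per cell cannot be told apart.

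Whether DEM acted differently in the 2 populations was tested as an interaction. Without the block no member was called, beside 0.417% of all genes with a positive and 0.0160% with a negative difference, by edgeR, and DESeq2 and limma called none either. By edgeR 1 member, Loxl3, had an unadjusted p under 0.05 (-0.40 ± 0.13, adjusted p = 0.622). With the block 2 members were called with a more negative DEM effect in T-N2G cells and none with a more positive one, beside 0.978% and 1.82% of all genes. Loxl3 differed by -0.40 ± 0.06 (adjusted p = 0.000495), with pair differences of 0.25, 0.23 and 0.20 in mock and -0.14, -0.19 and -0.20 in T-N2G cells. Fbn1 differed by -0.42 ± 0.07 (adjusted p = 0.00288), with -0.38, -0.53 and -0.35 in mock and -0.89, -0.87 and -0.77 in T-N2G cells. Both calls held with replicates 1 and 2 alone and the block (adjusted p = 0.00570 and 0.00762). For Loxl4 the difference was -0.02 ± 0.13 (±0.09 with the block).

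**Figure D3:**
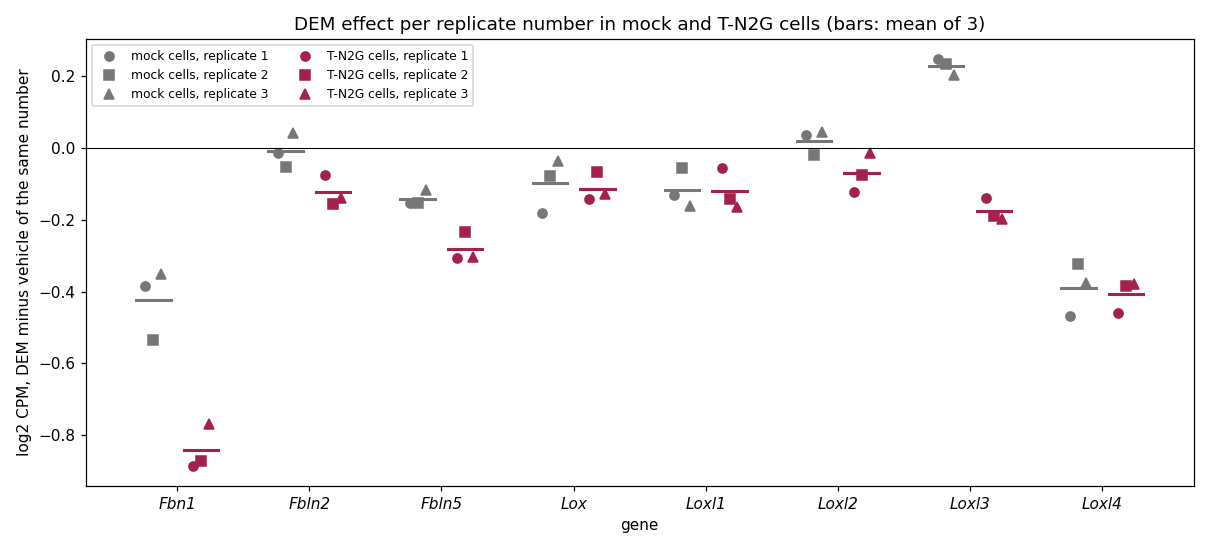
Log2 CPM in DEM minus vehicle for each gene except Eln and Mfap5, in mock and T-N2G cells. There is 1 point per replicate number, with a bar at the mean of 3. The Loxl3 points are above 0 in mock cells and under 0 in T-N2G cells, and the Fbn1 points of T-N2G cells are all under those of mock cells.

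Of the 21 further genes of elastic fibres and microfibrils, 19 were tested. Without the block DEM lowered 2 of them in T-N2G cells and none in mock cells, and with it 10 and 7, with none raised in either. Over all tested genes the block gave 21.9% lower and 20.9% higher with DEM in mock cells, and 22.2% and 22.8% in T-N2G cells. For T-N2G against mock it gave 3.24% lower and 3.06% higher in vehicle, and 9.32% and 10.3% in DEM. These shares, and those without the block given above, stand beside the counts of this and the following lists. T-N2G against mock called 0 in vehicle and 1 lower in DEM, or with the block 3 higher and 2 lower in vehicle and 3 higher and 5 lower in DEM. Fbln1, another fibulin gene (named after its values were seen), was among the higher with the block. It gave 0.42 ± 0.09 in vehicle (adjusted p = 0.00726, against 0.868 without the block) and 0.75 ± 0.09 in DEM (adjusted p = 1.03e-05, against 0.127). Efemp1, the gene of the short fibulin-3, stood at 116 ± 20.1 FPKM in mock vehicle, 84.0 ± 14.6 in mock DEM, and in T-N2G cells 72.3 ± 12.97 with vehicle and 45.7 ± 10.8 with DEM. It was lower in T-N2G DEM than in mock DEM (-0.87 ± 0.20, adjusted p = 0.0265) and than in T-N2G vehicle (-0.66 ± 0.19, adjusted p = 0.0364), and each call held with the block (adjusted p = 5.46e-08 and 1.20e-06). Without the block each depended on single libraries. The first was lost without replicate 2 or 3 of mock DEM or replicate 1 or 3 of T-N2G DEM (adjusted p up to 0.117), and the second without replicate 2 or 3 of T-N2G vehicle or replicate 1 or 3 of T-N2G DEM (adjusted p up to 0.129). Its other differences were called only with the block, -0.68 ± 0.07 for T-N2G against mock in vehicle (adjusted p = 5.29e-06, against 0.321 without it) and -0.47 ± 0.07 for DEM in mock cells (adjusted p = 3.74e-05, against 0.126). Ltbp2, which binds fibrillin and fibulin-5, fell with DEM in T-N2G cells (-0.59 ± 0.12, adjusted p = 0.00655), from 20.0 ± 0.968 to 13.3 ± 1.71 FPKM. With the block it was also lower with DEM in mock cells (-0.38 ± 0.06, adjusted p = 6.66e-05, against 0.0548 without it) and higher in T-N2G than mock vehicle (0.32 ± 0.06, adjusted p = 0.00168, against 0.625).

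Lysyl oxidases need copper, loaded in the secretory pathway, and Lox and Loxl1 are made with a propeptide that proteases remove. Of 12 genes of that supply and maturation 11 were tested, and DEM raised 3 in each population. With the block it raised 4 and lowered 2 in mock cells (20.9% and 21.9% of all genes) and raised 3 and lowered 3 in T-N2G cells (22.8% and 22.2% of all genes). Slc31a1, the copper importer CTR1, rose by 0.28 ± 0.05 in T-N2G cells (adjusted p = 0.00567) and 0.18 ± 0.05 in mock cells (adjusted p = 0.0433). Atp7a, the pump that delivers copper to the secretory pathway, rose by 0.40 ± 0.09 (adjusted p = 0.0101) and 0.31 ± 0.09 (adjusted p = 0.0369). Mtf1, a metal-responsive transcription factor, rose by 0.32 ± 0.10 (adjusted p = 0.0441) and 0.35 ± 0.10 (adjusted p = 0.0360). In mock cells the Slc31a1 call was lost without any 1 of the 6 libraries, that of Atp7a without any but replicate 2 of vehicle, and that of Mtf1 without any but replicate 3 of vehicle. In T-N2G cells the Mtf1 call was lost without replicate 1 or 2 of vehicle or replicate 2 or 3 of DEM. The 1 gene called lower without the block, in T-N2G cells, was Pcolce, an enhancer of procollagen processing (-0.32 ± 0.10, adjusted p = 0.0499, named after its value was seen), lost without any 1 library but replicate 2 of DEM. In mock cells Pcolce differed by a similar -0.30 ± 0.10 (adjusted p = 0.0695) without overlap of the groups, and was called with the block (adjusted p = 0.000146). None of the 11 differed between T-N2G and mock cells without the block, and 1 was lower in DEM with it.

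Fibrillar collagens are the other main substrate of these enzymes, and all 10 genes listed for them and for lysyl hydroxylases were tested. DEM lowered 2 in T-N2G cells, Col1a1 (-0.54 ± 0.10, adjusted p = 0.00487; 855 ± 98.2 to 588 ± 59.4 FPKM) and Col5a1 (-0.46 ± 0.14, adjusted p = 0.0481, lost without replicate 1 or 2 of T-N2G vehicle or replicate 1 or 3 of T-N2G DEM). In mock cells it raised 1, Plod1, a lysyl hydroxylase (0.31 ± 0.09, adjusted p = 0.0428, lost without any 1 library but replicate 2 of vehicle). With the block DEM lowered 7 and raised 1 in T-N2G cells (Plod1, adjusted p = 0.00458) and lowered 6 and raised 2 in mock cells, and Col1a1 was among those lowered in mock cells (-0.20 ± 0.04, adjusted p = 0.00167). T-N2G against mock called 0 without the block, and with it 2 higher in vehicle, and 2 higher and 4 lower in DEM. Col1a1 (-0.41 ± 0.04, adjusted p = 2.72e-06) and Col5a1 (-0.50 ± 0.05, adjusted p = 2.68e-06) were among the lower. The 2 higher were the collagens Col3a1 and Col5a3 (named after their values were seen). Col3a1 gave 0.38 ± 0.05 in vehicle (adjusted p = 6.35e-05) and 0.21 ± 0.05 in DEM (adjusted p = 0.00542). Col5a3 gave 0.31 ± 0.05 (adjusted p = 0.00154) and 0.37 ± 0.06 (adjusted p = 0.000112). With the block DEM lowered Col3a1 by -0.73 ± 0.05 in mock and -0.91 ± 0.05 in T-N2G cells. The median log2 DEM difference of this list was -0.373 in T-N2G and -0.207 in mock cells, and that of the 19 further elastic fibre genes -0.260 and -0.271.

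**Figure D4:**
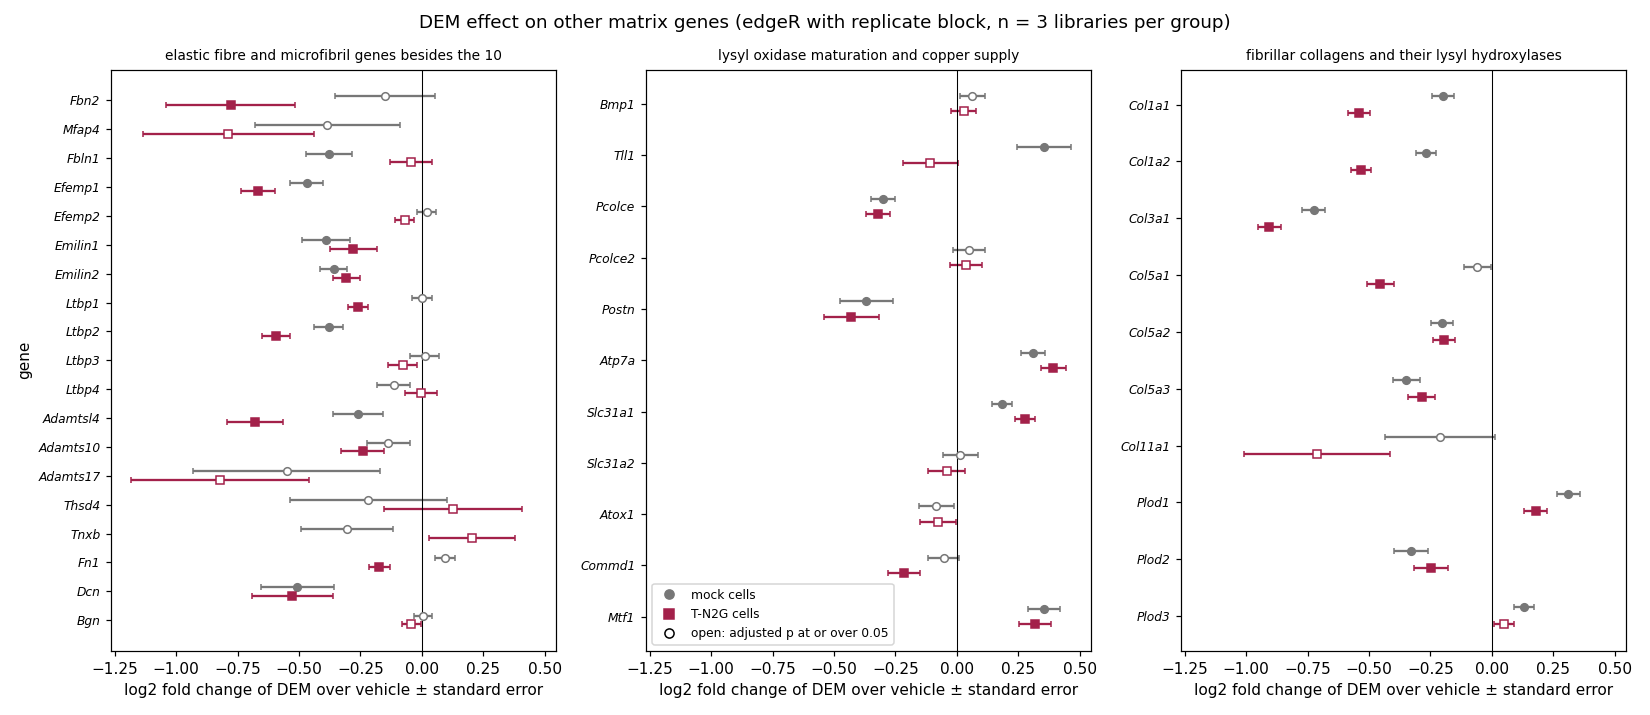
Log2 fold change of DEM over vehicle with standard errors, from edgeR with the replicate block, for the tested genes of 3 lists (panels) in mock and T-N2G cells. Slc31a1, Atp7a and Mtf1 lie above 0 in both populations, and Efemp1, Ltbp2 and Col1a1 lie under 0.

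Several lysyl oxidases are known targets of hypoxia-inducible factors, so 12 genes of the hypoxia response were examined beside them. DEM raised 3 in mock cells, namely Vegfa, the endothelial growth factor (1.00 ± 0.14, adjusted p = 0.00171; 3.63 ± 0.252 to 7.24 ± 0.861 FPKM), P4ha1, a collagen prolyl hydroxylase (0.32 ± 0.05, adjusted p = 0.00206), and P4ha2 (0.32 ± 0.07, adjusted p = 0.0163). The last was lost without replicate 1 of mock vehicle or replicate 2 of mock DEM. In T-N2G cells P4ha1 rose (0.21 ± 0.05, adjusted p = 0.00951) and Ndrg1, a gene induced by low oxygen, fell (-0.72 ± 0.11, adjusted p = 0.00110). For T-N2G against mock in DEM, P4ha2 was lower (-0.35 ± 0.07, adjusted p = 0.0205), a call lost without replicate 2 or 3 of mock DEM or replicate 1 or 3 of T-N2G DEM. With the block DEM raised 6 and lowered 1 in mock cells, raised 3 and lowered 2 in T-N2G cells, and T-N2G against mock gave 1 higher in vehicle and 3 lower in DEM. The 1 was Vegfa (0.71 ± 0.12, adjusted p = 0.00132, against 0.0667 without the block), whose DEM effect in T-N2G cells differed from that in mock cells by -0.82 ± 0.16 (blocked adjusted p = 0.00661, against 0.176). Ndrg1 was lower with DEM in mock cells too with the block (-0.20 ± 0.07, adjusted p = 0.0319). Of the 5 lysyl oxidases, Loxl3 alone was called higher with DEM in mock cells, in the blocked fit. Loxl4 was called lower there in both fits, and Lox, Loxl1 and Loxl2 were called in neither. A link between the hypoxia response and the lysyl oxidase values was not tested.

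Marker genes were counted in the same way, beside the same shares over all tested genes. Of 7 tested fibroblast markers none was called without the block in any comparison, and their summed level ran from 2237 to 2330 FPKM in T-N2G DEM against 2470 to 2639 in mock DEM. With the block DEM lowered 5 and raised 1 in T-N2G cells and lowered 4 and raised 1 in mock cells. T-N2G against mock, with the block, gave 1 higher and 1 lower in vehicle and 3 lower in DEM, Vim among the last (-0.23, adjusted p = 0.00139). Of 7 smooth muscle markers 1 was called without the block, Cnn1, the gene of calponin, which was lower with DEM in T-N2G cells (-0.48 ± 0.15, adjusted p = 0.0408, lost without any 1 library but replicate 1 of T-N2G DEM), and their summed level overlapped in all groups. With the block DEM lowered 3 in T-N2G cells, and raised 2 and lowered 1 in mock cells. Cnn1 was then higher in T-N2G than in mock libraries with vehicle (0.70 ± 0.13, adjusted p = 0.00231) and with DEM (0.41 ± 0.14, adjusted p = 0.0447), while 1 other marker was lower in T-N2G DEM than in mock DEM. Kdr was lower with DEM with the block, at -0.45 in mock (adjusted p = 0.00439) and -0.92 in T-N2G cells (adjusted p = 1.69e-05). Their part in the members' differences was not tested.

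The genes whose levels over the 12 libraries most resembled the 3 members with the smallest p-values were sought among 8933 tested genes of at least 10 CPM. For Loxl3 they were Setd5 (Pearson r of log2 CPM 0.922), Cacna1c (0.920) and Tbcc (0.919). For Fbn1 they were Qars (0.972), Adgrl2 (0.970) and Adamts1 (0.970), and for Loxl4 Apcdd1 (0.985), Mov10 (0.970) and Phf19 (0.967). These libraries share groups and replicate numbers, so the values describe likeness only.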

How the data were processed

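Polyadenylated RNA of 12 libraries was prepared with RNeasy Mini and the SureSelect strand-specific kit, per the labels' protocols. The submitters' processing notes name bcl2fastq 2.16.0.10, TopHat2 2.0.8b, Cuffdiff 2.1.1 and build mm9, with no role, strand setting or annotation. The authors deposited estimated counts of fragments per gene and library, named raw fragments per the file headers, of which 98.3% were whole, and FPKM, scaled by the authors for length and library size. Library totals were 18863560 to 23095692.

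Counts were rounded and fitted in R 4.3.3 with edgeR 4.0.16 (quasi-likelihood, a coefficient per group, all 12 libraries, TMM factors 0.980 to 1.028). The filter (minimum count 10, minimum total 15) kept 12469 genes and removed 11849. The standard error is the absolute log2 fold change over the square root of F. Scripts were tested on simulated data. Replicate numbers come from the sample titles. The labels state no block. The numbers were taken to pair the samples, since each same-number pair correlated (lowest r 0.424) and 12 of 12 libraries correlated best with their own number. A blocked fit, with this number as a further term, is therefore given for the members whose call it changed and, for the other lists, as counts of calls with the named genes it bears on. Alternatives were DESeq2 1.42.0, its size factors in edgeR, no filter, limma 3.58.1 on log2(FPKM + 1) and on log2(FPKM + 0.1), replicates 1 and 2 only, only the compared groups, and each library left out. Fits that combine the block with a left-out library or with replicates 1 and 2 were added after seeing the data.

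The members and lists were chosen with earlier results of these data known. All 10 members are named, with Mafg and Nfe2l2, up to 3 called genes of each list and comparison by adjusted p, the most abundant gene of a list without calls, and 3 genes most like each of the 3 members with the smallest p. Sequences are from RefSeq (GRCm38.p6), which is not the build of the files.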

Additional observations from a re-analysis of the deposited data

Results flagged for a closer look

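For 2 genes the effect of DEM differed between T-N2G and mock cells by the test of the difference itself, in edgeR's fit with the replicate block. The Fbn1 difference was -0.42 on the log2 scale (adjusted p = 0.00288), with DEM effects of -0.84 in T-N2G and -0.42 in mock cells, and the Loxl3 difference was -0.40 (adjusted p = 0.000495), with effects of -0.17 and 0.23. Neither was called without the block (adjusted p = 1.00 and 0.622).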

How the results depend on the processing

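With the replicate block, which pairs the libraries, the number of members called moved from 0 to 4 for T-N2G against mock in vehicle, from 1 to 6 for the same in DEM, from 1 to 5 for DEM in mock cells, from 2 to 6 for DEM in T-N2G cells and from 0 to 2 for the difference of DEM effects. The block with replicates 1 and 2 only, added after seeing the data, gave 2, 6, 4, 5 and 2. The block with 1 library left out gave 2 to 4, 5 to 6, 4 to 6, 5 to 7 and 2 throughout. Without the block, replicates 1 and 2 only gave 0 calls for DEM in mock cells and 0 in T-N2G cells, with fewer libraries. DESeq2 gave 2 for DEM in mock cells, where leaving out 1 library gave 0 to 2 and in T-N2G cells 2 to 3. The causes were not tested.

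Of 1158 member values under alternatives, 153 were called only there (150 of them with the block) and 5 lost their call. A sign other than the first fit's occurred in 99, none of them called in either. Depth limits Eln and Mfap5, which had at most 248 and 23 fragments in a library. Pseudocount, filter and scaling changed no member's call. Beyond the members, the DEM calls of Atp7a and Slc31a1 in mock cells, of Mtf1 in both populations, and of Pcolce, Cnn1, Col5a1, Efemp1 and P4ha1 in T-N2G cells were each lost under at least 1 other filter, tool, scaling or choice of groups, with adjusted p up to 0.119 (Mtf1 in T-N2G cells, only the compared groups fitted).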
